A study of Mus musculus with 7 samples.

Results

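The Hippo pathway and angiomotin genes described here are 10 genes of the deposited count table of 55487 genes, matched by symbol: Amotl2, Amotl1, Amot, Ajuba, Tead1, Lats1, Lats2, Yap1, Wwtr1 and Ankrd1. The set was chosen on a measured value, because Amotl2 had the smallest p of all genes in the knockout comparison. The other genes are its relatives and the pathway around it. The same comparison therefore gives descriptions here, not tests, for all 10 genes.

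Islets were isolated from mice in which Traf6, an E3 ubiquitin ligase of innate immune signalling, was knocked out in beta cells, and from control mice. The Traf6 KO group has 3 libraries and the control group has 4, all from mice kept for 15 weeks on a 60% high-fat diet. After isolation all islets rested in culture for 24 hours before RNA was taken. The labels give neither the Cre driver, the alleles of the controls, nor the age or sex of the animals. Animal tags differ between all 7 libraries, so a library stands for 1 mouse here. Nothing else says that sources were separate, and p-values measure only the spread between these libraries, which may be technical.

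Hippo signalling restrains growth through a kinase relay that ends in LATS1 and LATS2, which phosphorylate the coactivators YAP (Yap1) and TAZ (Wwtr1) and keep them out of the nucleus. In the nucleus YAP and TAZ bind TEAD proteins and switch on target genes, among them Ankrd1 and Amotl2. The angiomotins are scaffolds of cell junctions and actin that bind YAP and TAZ directly and also promote LATS activity, so Amotl2 is both a target and a brake. In the mouse pancreas Yap1 is a gene of duct and acinar cells and is shut down as endocrine cells form.

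Library totals ran from 22104256 to 29917292 counts. Levels are given as CPM, the count scaled to library size after TMM normalization, in which a factor per library corrects for a few very abundant transcripts. The 16 acinar marker genes took 47.3%, 36.9% and 1.40% of all counts in Traf6 KO 1 to 3, against 16.9%, 0.415% and 0.402% in control 1 to 3 and 2.83% in the library labelled control 4. The TMM factors were 0.50, 0.74 and 1.35 in Traf6 KO 1 to 3 and 0.954 to 1.305 in the control libraries. The 10 beta-cell markers summed to 89592 to 115905 CPM in Traf6 KO and 155789 to 189883 CPM in control, so islet RNA was present in every library. The lowest sum was in Traf6 KO 3, and 10 of 10 genes were below 0 in log2 fold change. Traf6, counted over the whole gene, had 14.7, 15.3 and 14.5 CPM in Traf6 KO 1 to 3, against 17.9, 25.5 and 22.1 CPM in control 1 to 3. It averaged 14.9 ± 0.446 CPM in Traf6 KO (SD, n = 3) and 19.5 ± 5.55 CPM in control (SD, n = 4). Its log2 fold change was -0.40 ± 0.22 (SE), and the adjusted p was 0.416 (edgeR, Benjamini-Hochberg). The library labelled control 4 held 12.6 CPM of Traf6, below each Traf6 KO library, so this gene does not bear out its label, and every direction given here counts that library as a control. Traf6 KO 3 alone had abundant Xist (12998 counts, against 0 to 11 in the other libraries), and its Y-linked genes had 0 counts, against 1221 to 4252 in the others. Traf6 KO 3 and the library labelled control 4 also share the animal tag letter S, while the others carry Q or R.

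TEAD proteins recognise the letters CATTCC, and the promoters of these genes were searched for them on both strands. Promoter windows from RefSeq (GRCm38.p6), running from 250 bases before a gene's start to 50 bases after it, were found for 9 of the 10 genes. The motif, read as CATTCC or as GGAATG on the gene's strand, stood in a window of 6 of those 9 genes. Counted by window it stood in 7 of 11, against 14.7% of all 32851 windows of the genome. The 2 Wwtr1 windows overlap and hold the same site. The sites are printed because they place the same letters at the starts of genes whose levels differ widely in these libraries. Each is 30 bases, 5′ to 3′ on the gene's strand, with the motif in capitals.
Amotl2, chr9:102717727-102717756, plus strand: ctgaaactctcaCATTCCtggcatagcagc
Yap1, chr9:8004720-8004749, minus strand: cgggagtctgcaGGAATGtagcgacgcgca
Wwtr1, chr3:57576029-57576058, minus strand: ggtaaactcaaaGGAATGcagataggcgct
Lats2, chr14:57746102-57746131, minus strand: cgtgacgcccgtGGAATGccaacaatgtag
Ajuba, chr14:54577808-54577837, minus strand: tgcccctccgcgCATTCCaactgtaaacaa
Ajuba, chr14:54577830-54577859, minus strand: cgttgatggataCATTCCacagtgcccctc
Ankrd1, chr19:36119950-36119979, minus strand: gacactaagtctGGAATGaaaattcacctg
Ankrd1, chr19:36120037-36120066, minus strand: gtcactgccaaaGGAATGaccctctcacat
The motif began 65 bases before the start of Amotl2, 141 before that of Yap1, and 136 and 170 before the 2 listed starts of Wwtr1. It began 164 and 186 bases before the start of Ajuba and 123 and 210 before that of Ankrd1, and 5 bases after 1 of the 2 listed starts of Lats2. In GENCODE M21 the Amotl2, Lats2 and Ankrd1 matches lie inside an annotated exon of the same gene. Amotl1, Amot and Lats1 had no match in these windows. TGANTCA, the motif of AP-1, stood in no window of the 9 genes and in 7.81% of all windows. A match describes these letters and does not show that a factor binds there.

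The 3 angiomotin genes differed from each other in how they lay between the genotypes. Amotl2 (ENSMUSG00000032531, chromosome 9, 102716672 to 102733418, plus strand, protein-coding) was measured at 27.1, 26.1 and 36.4 CPM in Traf6 KO 1 to 3. It was measured at 15.4, 13.6 and 13.6 CPM in control 1 to 3 and, for the library labelled control 4, 14.5 CPM. All 3 Traf6 KO values were above all 4 control values, as for 5.58% of all 16203 genes tested, the highest was Traf6 KO 3, and the control libraries were tightly grouped. The mean was 29.9 ± 5.67 CPM in Traf6 KO (SD, n = 3) and 14.3 ± 0.887 CPM in control (SD, n = 4), giving 1.07 ± 0.14 (SE) as the log2 fold change. This is the contrast that chose the gene. The genes just after it by p were Plk2, a stress-responsive kinase gene, at a log2 fold change of 1.83 ± 0.24, and Snx18 at 0.73 ± 0.10 (SE).

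The size of the Amotl2 difference depends on how libraries are scaled. On plain library totals its level was 13.6, 19.3 and 49.2 CPM in Traf6 KO 1 to 3, against 14.7 to 18.5 in control, and the groups overlapped, with Traf6 KO 1 the lowest of all libraries. On that scale the log2 fold change was 0.68, while the median of all tested genes stood at -0.46, so Amotl2 lay 1.14 above the median gene. With TMM the median of all genes was 0.01.

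Amotl1 (ENSMUSG00000013076, chromosome 9, 14541966 to 14645056, minus strand), a close relative that also binds YAP, did not share the Amotl2 pattern. Its level was 48.3, 59.1 and 54.3 CPM in Traf6 KO 1 to 3, against 53.8, 49.8 and 44.6 CPM in control 1 to 3 and, for the library labelled control 4, 48.0 CPM. The groups overlapped, and the log2 fold change was 0.14 ± 0.11 (SE), with 0.22 without Traf6 KO 1 and 0.08 without Traf6 KO 2.

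The ratio of Amotl2 to Amotl1 counts within a library needs no scaling. It was 0.562, 0.441 and 0.669 in Traf6 KO 1 to 3, against 0.287, 0.273 and 0.304 in control 1 to 3 and 0.302 in the library labelled control 4. The groups did not overlap, and the mean was 0.557 ± 0.114 in Traf6 KO (SD, n = 3) and 0.292 ± 0.015 in control (SD, n = 4). The ratio contains the gene that was chosen, so it is a description. It shows that the 2 genes differed unequally, not that Amotl1 stayed the same.

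Amot (ENSMUSG00000041688, chromosome X, 145446425 to 145505181, minus strand), the founding member of the family, was scarce. Its counts were 14, 23 and 50 in Traf6 KO 1 to 3 and 28 to 39 in control, or 1.27, 1.24 and 1.62 CPM in Traf6 KO and 0.780 to 1.37 CPM in control. The groups overlapped, with a log2 fold change of 0.37 ± 0.32 (SE), which was 0.23 without Traf6 KO 3 and 0.53 without control 1. The exact 95% Poisson interval of the 14 counts in Traf6 KO 1 was 0.692 to 2.12 CPM, which spans all the control values and covers counting error only. The gene is X-linked, and the highest level stood in Traf6 KO 3, the library with abundant Xist. The part of sex in this was not tested.

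Per kilobase of merged exons, Amotl2 made up 46.6%, 40.8% and 50.8% of the angiomotin family in Traf6 KO 1 to 3, against 30.03% to 32.2% in control. Amotl1 made up 47.5% to 57.8% in Traf6 KO and 66.1% to 68.7% in control, and Amot 1.45% to 1.69% in Traf6 KO and 1.29% to 2.04% in control. Amotl1 was the larger part of the family in 2 of 3 Traf6 KO libraries and in 4 of 4 controls. In Traf6 KO 3 Amotl2 exceeded it. This depends on the length used: per kilobase of the longest transcript, Amotl2 exceeded Amotl1 in Traf6 KO 1 (6.13 against 5.39 CPM per kilobase) and in Traf6 KO 3 (8.22 against 6.07), and Amotl1 was the larger in 1 of 3 Traf6 KO libraries and 4 of 4 controls.

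**Figure D1:**
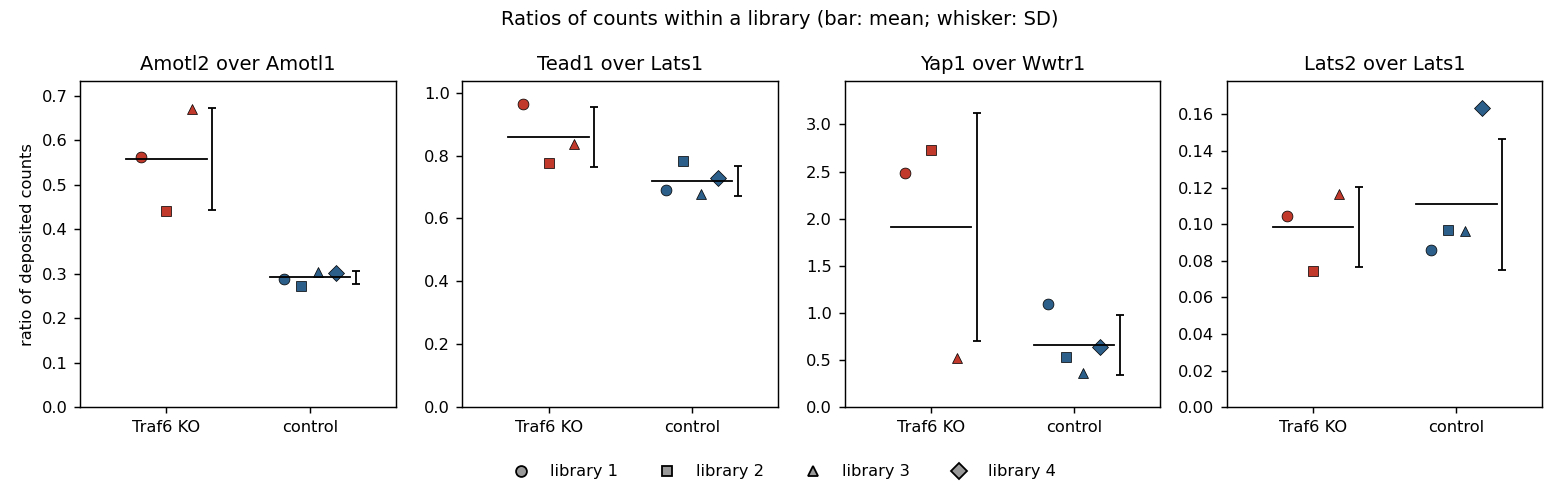
Ratios of deposited counts within each library for 4 gene pairs, with 3 Traf6 KO libraries on the left and 4 control libraries on the right of each panel; points are libraries, bars are means and whiskers are SD. Amotl2 over Amotl1 is 0.441 to 0.669 in Traf6 KO and 0.273 to 0.304 in control, while the groups overlap for the other pairs.

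Among the coactivators and their DNA-binding partners, Tead1 was higher in each Traf6 KO library than in any control, and Yap1 was highest in the libraries richest in acinar RNA. Tead1 (ENSMUSG00000055320, chromosome 7, 112679318 to 112906807, plus strand) had 30.8, 44.5 and 41.7 CPM in Traf6 KO 1 to 3, against 23.3, 28.3 and 24.8 CPM in control 1 to 3 and, for the library labelled control 4, 26.9 CPM. No control reached the lowest Traf6 KO library, though the margin was small for Traf6 KO 1. The mean was 39.0 ± 7.20 CPM in Traf6 KO (SD, n = 3) and 25.8 ± 2.23 CPM in control (SD, n = 4), giving 0.60 ± 0.14 (SE) as the log2 fold change. On plain totals it was 0.16, which is 0.62 above the median gene on that scale, and the groups then overlapped.

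Yap1 (ENSMUSG00000053110, chromosome 9, 7931999 to 8004596, minus strand) had 16.2, 14.9 and 3.76 CPM in Traf6 KO 1 to 3, against 6.16, 3.01 and 2.20 CPM in control 1 to 3 and, for the library labelled control 4, 3.64 CPM. The 3 highest libraries were the 3 with the largest acinar share, and Traf6 KO 3 lay within the control range. The mean was 11.6 ± 6.83 CPM in Traf6 KO (SD, n = 3) and 3.75 ± 1.71 CPM in control (SD, n = 4), with a log2 fold change of 1.62 ± 0.52 (SE). It was 0.46 with the mean log2 level of the acinar markers as a covariate and 0.46 with that of the ductal markers. Leaving out the 3 acinar-rich libraries gave 0.34 and left 1 Traf6 KO library, assumed to vary like the controls. The part of acinar RNA in the Yap1 difference was not tested further. For Amotl2 the same settings gave 1.14, 1.15 and 1.38, and for Tead1 0.71, 0.73 and 0.64. Yap1 shares 116 exon bases with an antisense transcript, Gm20416, that has 1 count in all. In bulk islet RNA fewer cells of a type and less RNA per cell cannot be told apart.

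Wwtr1 (ENSMUSG00000027803, chromosome 3, 57455649 to 57575910, minus strand) did not follow Yap1. It had 6.51, 5.44 and 7.19 CPM in Traf6 KO 1 to 3, against 5.603, 5.63 and 6.06 CPM in control 1 to 3 and, for the library labelled control 4, 5.65 CPM. The values spanned a narrow range, Traf6 KO 2 was the lowest of all, and the log2 fold change was 0.16 ± 0.16 (SE). Leaving out Traf6 KO 3 gave 0.05, and leaving out Traf6 KO 2 gave 0.27. The ratio of Yap1 to Wwtr1 counts was 2.49, 2.73 and 0.523 in Traf6 KO 1 to 3, against 1.10, 0.535 and 0.362 in control 1 to 3 and 0.644 in the library labelled control 4. Yap1 counts exceeded Wwtr1 counts in the acinar-rich libraries Traf6 KO 1, Traf6 KO 2 and control 1. Per kilobase of merged exons, Yap1 was 56.2% and 58.5% of the pair in Traf6 KO 1 and 2. In control 1 it was 36.2%, so Wwtr1 was the larger there.

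Among the other TEAD genes, Tead2 and Tead3 were highest in the same 3 acinar-rich libraries as Yap1. Tead2 had 138, 75.3 and 2.75 CPM in Traf6 KO 1 to 3, against 25.1, 1.37 and 0.907 CPM in control 1 to 3 and, for the library labelled control 4, 4.38 CPM. Its log2 fold change was 3.18 ± 1.37 (SE), and it was far lower in the 4 libraries poor in acinar RNA. Per kilobase, Tead1 was 7.10%, 16.6% and 79.0% of the TEAD family in Traf6 KO 1 to 3, against 23.04%, 79.4% and 82.7% in control 1 to 3 and 64.1% in the library labelled control 4. Tead3 stood at 1.62 ± 0.59 as a log2 fold change (SE), and the scarce Tead4 at 0.43 ± 0.68. Vgll4, a TEAD cofactor that competes with YAP, had a log2 fold change of 0.24 ± 0.13 (SE) at 12.5 ± 1.38 CPM in Traf6 KO (SD, n = 3) and 10.6 ± 0.826 CPM in control (SD, n = 4).

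**Figure D2:**
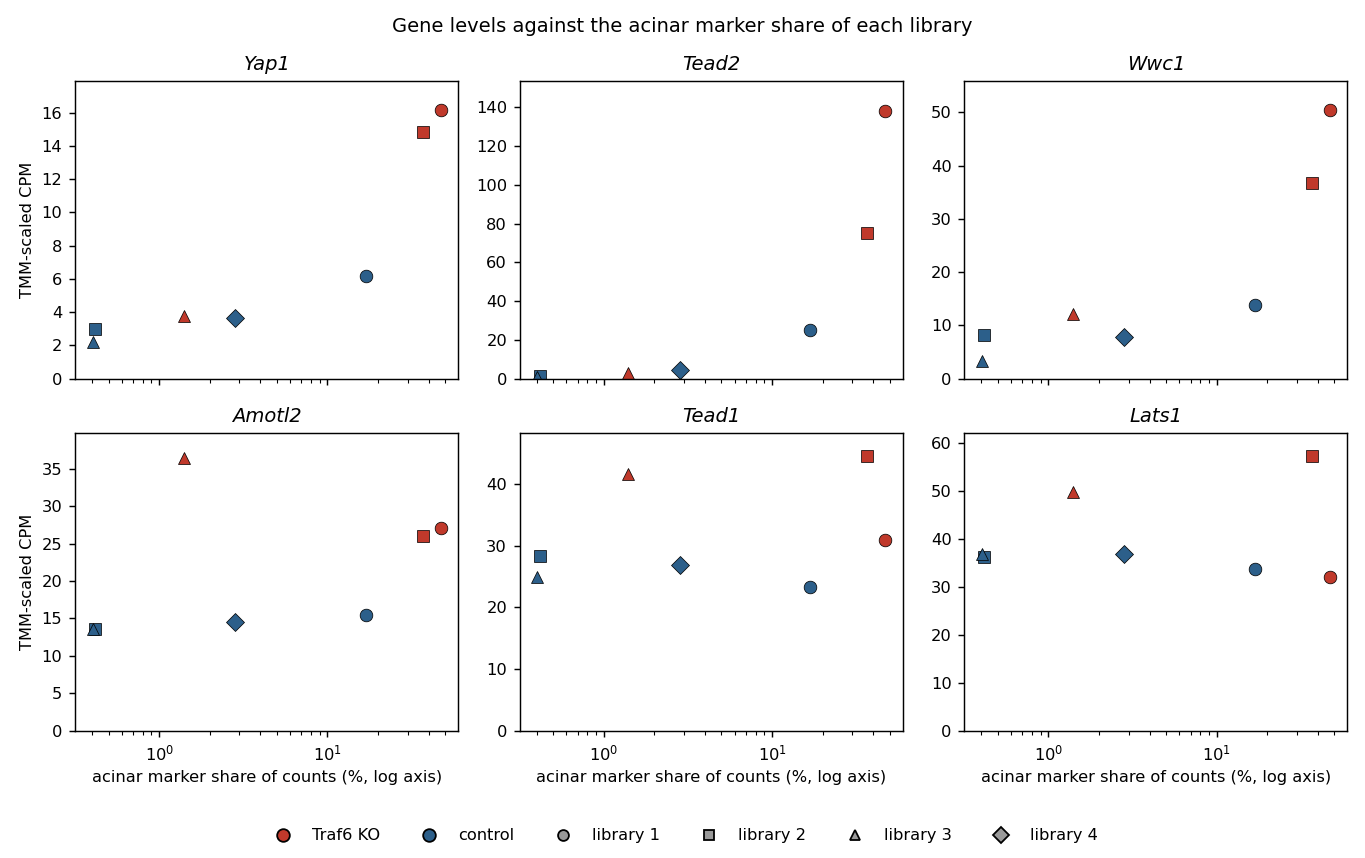
TMM-scaled CPM of 6 genes against the acinar marker share of counts in each library (log axis); red points are Traf6 KO, blue points are control and the marker shape gives the library number. Yap1, Tead2 and Wwc1 are highest at shares of 47.3%, 36.9% and 16.9%, while Amotl2 is highest at 1.40%, in Traf6 KO 3.

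The LATS kinases overlapped between genotypes. Lats1 (ENSMUSG00000040021, chromosome 10, 7681214 to 7716460, plus strand) had 32.02, 57.2 and 49.8 CPM in Traf6 KO 1 to 3, against 33.7, 36.2 and 36.7 CPM in control 1 to 3 and, for the library labelled control 4, 36.9 CPM. Traf6 KO 1 was the lowest library and the other Traf6 KO libraries were the highest. The log2 fold change was 0.37 ± 0.18 (SE), and -0.04 on plain totals, 0.41 above the median gene there. Leaving out Traf6 KO 1 gave 0.59, and leaving out Traf6 KO 2 gave 0.20. Lats1 and Tead1 deviated together within genotype (Pearson r = 0.92 of log2 CPM deviations over 7 libraries, a description). This was the highest r among all pairs of the tested genes of the set. The lowest was -0.72, for Yap1 with Wwtr1, and Amotl2 had 0.11 with Lats1 and 0.08 with Tead1. The value for Lats1 with Tead1 rests mainly on the Traf6 KO libraries, where Traf6 KO 1 was the lowest for both genes. In control Lats1 spanned only 33.7 to 36.9 CPM.

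Lats2 (ENSMUSG00000021959, chromosome 14, 57689662 to 57758388, minus strand), itself a YAP target, had 3.35, 4.25 and 5.80 CPM in Traf6 KO 1 to 3, against 2.91, 3.51 and 3.54 CPM in control 1 to 3 and, for the library labelled control 4, 6.04 CPM. Both libraries with the tag letter S were the highest of their group. The log2 fold change was 0.17 ± 0.32 (SE), 0.44 without the library labelled control 4 and -0.07 without Traf6 KO 3. Per kilobase, Lats2 was 7.22% to 10.9% of the LATS pair in Traf6 KO and 8.28% to 14.6% in control. Its exons share 2955 bases with a predicted gene, Gm49361, that has 0 counts here.

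Ajuba (ENSMUSG00000022178, chromosome 14, 54567472 to 54577558, minus strand) encodes a LIM protein that holds LATS kinases inactive at junctions. It had 2.35, 1.29 and 1.26 CPM in Traf6 KO 1 to 3, against 1.44, 0.669 and 1.55 CPM in control 1 to 3 and, for the library labelled control 4, 1.98 CPM. These rest on 24 to 56 counts per library, the groups overlapped, and the log2 fold change was 0.20 ± 0.43 (SE). It was -0.14 with the acinar covariate, -0.13 without Traf6 KO 1 and 0.41 without the library labelled control 4. Of its relatives, Limd1 stood at 61.1 ± 8.02 CPM in Traf6 KO (SD, n = 3) and 60.9 ± 5.05 CPM in control (SD, n = 4). Wtip had 7.38 to 8.40 CPM in Traf6 KO and 10.4 to 16.0 CPM in control, with no overlap and a log2 fold change of -0.61 ± 0.18 (SE).

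Ankrd1 (ENSMUSG00000024803, chromosome 19, 36111961 to 36120099, minus strand), a much used readout of YAP activity in other tissues, was at the floor. It had 2, 0 and 1 counts in Traf6 KO 1 to 3, against 2, 5 and 0 counts in control 1 to 3 and 2 in the library labelled control 4. The total of 12 counts was too low for the test, and no fold change is given. For the count of 0 in Traf6 KO 2, a floor of 3 counts is 0.162 CPM, and the upper end of the exact 95% Poisson interval is 0.199 CPM.

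**Figure D3:**
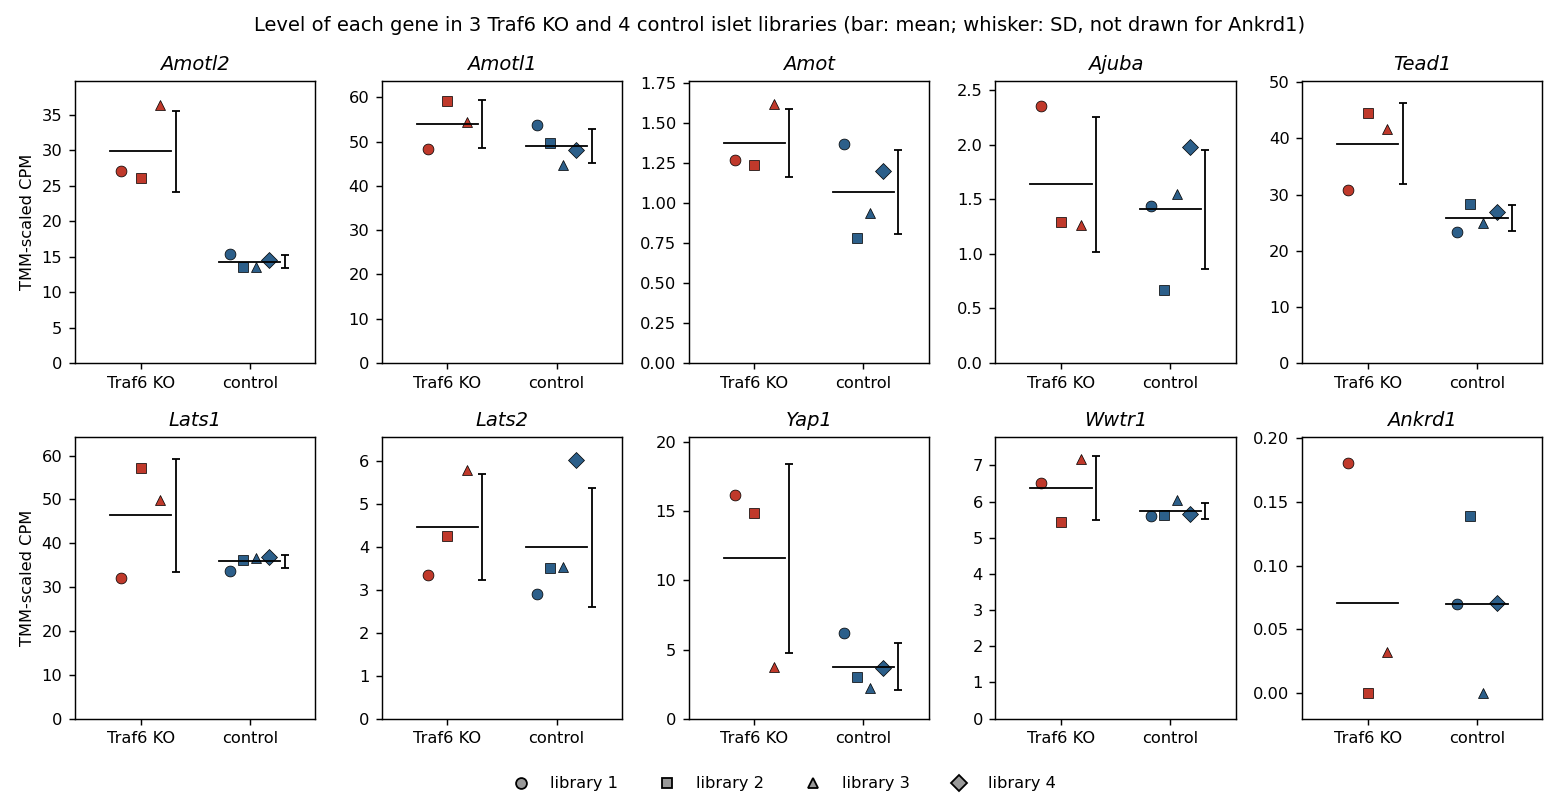
TMM-scaled CPM of the 10 genes in 3 Traf6 KO libraries (left, red) and 4 control libraries (right, blue); points are libraries, bars are means and whiskers are SD. Amotl2 (26.1 to 36.4 CPM in Traf6 KO, 13.6 to 15.4 in control) and Tead1 (30.8 to 44.5 in Traf6 KO, 23.3 to 28.3 in control) do not overlap, and Yap1 is high in 2 of 3 Traf6 KO libraries.

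Levels of different genes were compared per kilobase of merged exons. In Traf6 KO the order was Lats1 (6.35 ± 1.78 CPM per kilobase, SD, n = 3), Amotl1 (5.36 ± 0.536), Amotl2 (4.75 ± 0.901), Tead1 (2.87 ± 0.531), Wwtr1 (1.34 ± 0.185), Yap1 (1.25 ± 0.738), Lats2 (0.641 ± 0.178), Ajuba (0.449 ± 0.170), Amot (0.164 ± 0.025) and Ankrd1 (0.025). In control it was Lats1 (4.92 ± 0.201 CPM per kilobase, SD, n = 4), Amotl1 (4.87 ± 0.378), Amotl2 (2.27 ± 0.141), Tead1 (1.90 ± 0.164), Wwtr1 (1.20 ± 0.045), Lats2 (0.574 ± 0.199), Yap1 (0.405 ± 0.185), Ajuba (0.386 ± 0.149), Amot (0.127 ± 0.031) and Ankrd1 (0.024). Lats1 and Amotl1 did not differ beyond their spread in either group. In control the values of Lats2, Yap1 and Ajuba also overlapped. In Traf6 KO the order is not resolved among Lats1, Amotl1 and Amotl2, among Yap1, Lats2 and Ajuba, or between Wwtr1 and Yap1.

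The edgeR quasi-likelihood test called 0% of 16203 genes at a Benjamini-Hochberg adjusted p under 0.05, and so none of the 9 genes tested here. An unadjusted p under 0.05 was found for 2589 genes (16.0%). limma-voom called 0 genes and the DESeq2 Wald test 634. Without Traf6 KO 3, edgeR called 701 genes, Amotl2 and Yap1 among them. The Traf6 KO values were all above the control values for 5.58% of all genes and all below for 8.68%, while Amotl2 and Tead1 were above and none was below. All 9 (Ankrd1 did not pass the filter) had a log2 fold change above 0, which held for 50.7% of all genes. On plain library totals only Amotl2, Tead1 and Yap1 were above 0, though each of the 9 stayed above the median gene. Since the contrast chose the set, nothing is read from these counts. With only the libraries tagged Q or R, log2 fold changes were 0.90 for Amotl2, 0.57 for Tead1 and 2.04 for Yap1, and the S-tagged pair is too small for a test.

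**Figure D4:**
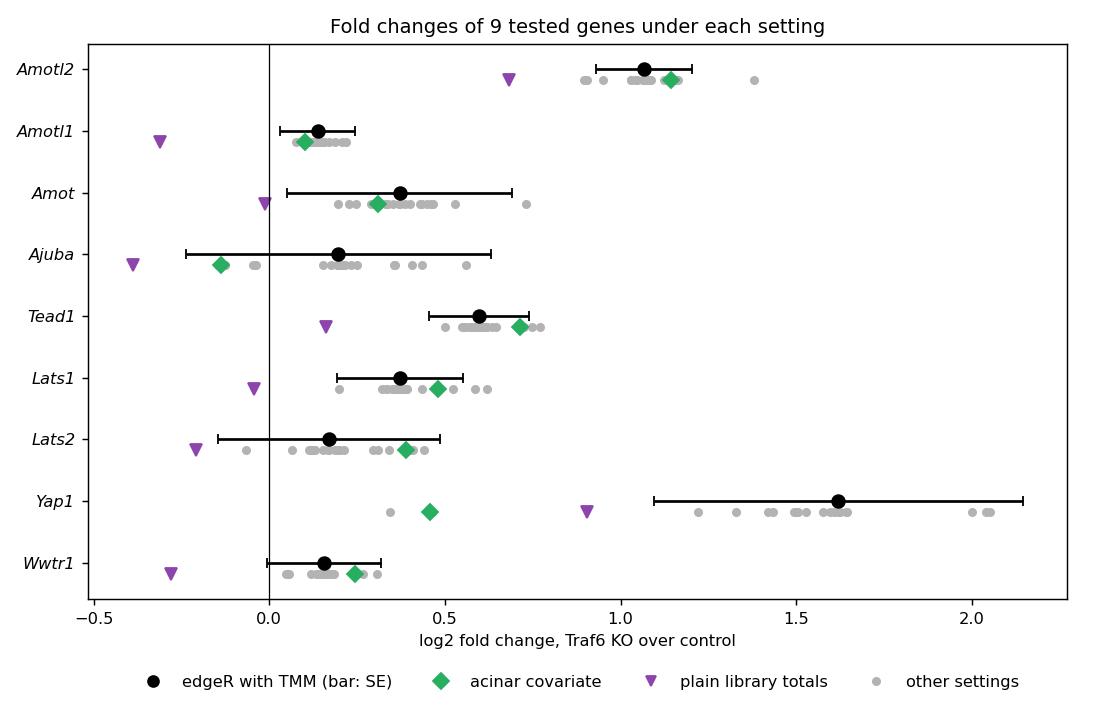
Log2 fold change of Traf6 KO over control for the 9 tested genes; black points are the edgeR fit with TMM and its SE, green diamonds the acinar covariate, purple triangles plain library totals and grey points the other settings. Amotl2 runs from 0.68 to 1.38 and Yap1 from 0.34 to 2.05, and plain totals place 6 of the 9 below 0.

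The wider pathway was taken from 8 lists of 94 genes, of which 89 were tested and 0 passed in either direction (edgeR adjusted p under 0.05). Without the 10 genes above, 61 of 80 had a log2 fold change above 0 (76.3%, against 50.7% of all genes), with a median of 0.14 beside 0.01 for all genes. On plain library totals 23 of these 80 were above 0 (28.7%, against 14.5% of all genes), and 58 were above the median gene. In the kinase core 4 of 7 other genes were above 0 (57.1%). None of the 9 kinase core genes was above 0 on plain totals, where 6 were above the median gene. Mob1a, the LATS coactivator, had 25.8 ± 2.20 CPM in Traf6 KO (SD, n = 3) and 19.1 ± 2.41 CPM in control (SD, n = 4), and the scaffold gene Sav1 26.2 ± 4.19 and 20.2 ± 1.74 CPM. Stk3, the kinase upstream of LATS, had a log2 fold change of 0.30 ± 0.14 and Stk38l, a LATS-related kinase, one of -0.14 ± 0.09 (SE).

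Of 18 upstream regulators of LATS, 15 were above 0 (83.3%, against 50.7% of all genes) with a median of 0.22. On plain totals 6 were above 0 (33.3%, against 14.5% of all genes), and 16 were above the median gene. Wwc1, the scaffold KIBRA, had 50.4, 36.8 and 12.1 CPM in Traf6 KO 1 to 3, against 13.8, 8.22 and 3.39 CPM in control 1 to 3 and, for the library labelled control 4, 7.84 CPM, again highest where the acinar share was largest. Its relative Wwc2 had a log2 fold change of 1.36 ± 0.36, the FERM-domain gene Frmd6 one of 0.72 ± 0.28 and the striatin gene Strn3 one of 0.31 ± 0.12 (SE). Both Wwc genes overlapped between the genotypes. Wwc2 had 13.7, 11.4 and 4.44 CPM in Traf6 KO 1 to 3 and 3.19 to 4.62 CPM in control.

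YAP and TAZ target genes did not share one direction. Leaving out Amotl2, Amotl1, Ajuba, Lats2 and Tead1, which the list also holds, 13 of 21 tested genes stood above 0 in log2 fold change (61.9%, against 50.7% of all genes), with a median of 0.13. Of these 21, Dock5 and Cdc42ep3 had all Traf6 KO values above the control values and Ccnd1 had all below, against 5.58% and 8.68% of all genes. With the 5 genes counted in, 18 of 26 were above 0, and 12 without Traf6 KO 3. On plain totals 11 were above 0 (42.3%, against 14.5% of all genes), and 18 of the 26 were above the median gene. Dock5, a Rac exchange factor, had a log2 fold change of 1.16 ± 0.27, the Cdc42 effector Cdc42ep3 one of 0.66 ± 0.23, the Arf regulator Asap1 one of 0.47 ± 0.17 and Fjx1 one of 1.58 ± 0.63 (SE). Fjx1 had 7.78, 4.15 and 1.07 CPM in Traf6 KO 1 to 3 and 0.878 to 2.42 CPM in control, with Traf6 KO 3 in the control range. The following genes were named after their values were seen. Ccn1, a classic YAP target, had 8.23, 9.59 and 111 CPM in Traf6 KO 1 to 3, against 11.3 to 19.0 CPM in control, so 1 library carried its log2 fold change of 1.57 ± 0.83 (SE). Ccn2, its paralog, had 5.28 to 10.2 CPM in Traf6 KO and 5.94 to 10.4 CPM in control. Ccnd1, the cyclin D1 gene, was the target below every control, with 122 to 146 CPM in Traf6 KO and 149 to 172 CPM in control.

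Partners of the angiomotins at junctions were mostly near 0, with 16 of 17 above it (94.1%, against 50.7% of all genes) and a median of 0.11. On plain totals 4 of 17 were above 0 (23.5%, against 14.5% of all genes), and 13 were above the median gene. Magi3 had 16.2, 14.9 and 6.90 CPM in Traf6 KO 1 to 3, against 5.08, 2.93 and 2.99 CPM in control 1 to 3 and, for the library labelled control 4, 4.66 CPM, with no overlap. Magi1 had a log2 fold change of 0.54 ± 0.13, Ocln, the occludin gene, one of 0.95 ± 0.35 and Pals1 one of 0.32 ± 0.14 (SE). Ocln had 23.8, 19.8 and 7.64 CPM in Traf6 KO 1 to 3 and 6.94 to 9.69 CPM in control, with Traf6 KO 3 in the control range. Of 13 ubiquitin regulators of angiomotins and YAP, 10 were above 0 (76.9%) with a median of 0.14. On plain totals 3 were above 0 (23.1%), and 10 were above the median gene. Nedd4, a ligase that targets angiomotins, had 285 to 378 CPM in Traf6 KO and 209 to 236 CPM in control. Itch, a relative, had 40.5 to 52.5 CPM in Traf6 KO and 29.7 to 34.0 CPM in control. Wwp1 had a log2 fold change of 0.79 ± 0.26 and Fbxw11 one of 0.28 ± 0.10 (SE). The Wwp1 level was 18.4, 18.7 and 8.78 CPM in Traf6 KO 1 to 3 and 7.75 to 9.48 CPM in control, again with Traf6 KO 3 in the control range.

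**Figure D5:**
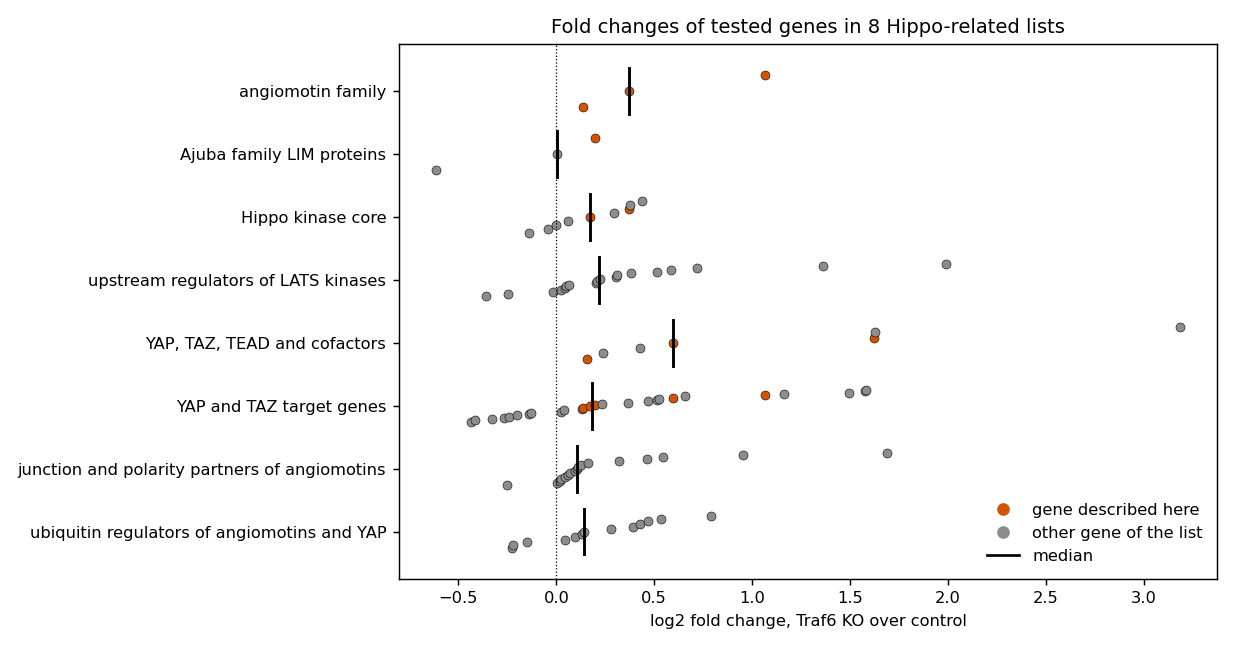
Log2 fold change of Traf6 KO over control for each tested gene of the 8 Hippo-related lists; orange points are genes of the set described here, grey points are the others and black lines are list medians. Medians lie between 0.00 and 0.60, and Tead2 stands at 3.18.

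Markers of other cell types of the pancreas also differed between libraries. Acinar markers had 16 of 16 genes above 0 in log2 fold change. Ductal markers summed to 539, 460 and 369 CPM in Traf6 KO 1 to 3 and to 402 to 505 CPM in control, with 6 of 9 tested genes above 0 and Cftr, Mmp7 and Onecut1 too low to test. Stellate and fibroblast markers summed to 328, 149 and 203 CPM in Traf6 KO 1 to 3 and to 130 to 214.3 CPM in control, with 10 of 12 above 0. Endothelial markers summed to 403 to 465 CPM in Traf6 KO and 465 to 570 CPM in control, with 1 of 12 above 0. Macrophage markers summed to 145 to 252 CPM in Traf6 KO and 173 to 534 CPM in control, with 2 of 12 above 0. Amotl2 was 26.1 CPM in Traf6 KO 2, whose stellate sum lay in the control range, and 27.1 CPM in Traf6 KO 1, which had the highest stellate sum. In Traf6 KO 2 the sum was mostly the pericyte gene Rgs5. Rgs5 had 88.6, 97.0 and 73.5 CPM in Traf6 KO 1 to 3 and 65.0 to 109 CPM in control. Col3a1, a collagen gene of the list named after its values were seen, had 91.4, 13.7 and 28.8 CPM in Traf6 KO 1 to 3. In control Col3a1 had 9.01 to 35.1 CPM. Pdgfra, a fibroblast receptor gene of the list named after its values were seen, had 2.17, 0.754 and 2.11 CPM in Traf6 KO 1 to 3 and 0.0878 to 0.420 CPM in control. Like Amotl2 it did not overlap between the groups, with a log2 fold change of 2.97 ± 0.60 (SE), and its part in the Amotl2 difference was not tested. With the mean log2 level of the stellate and fibroblast markers as a covariate, a measure other than their sum, the Amotl2 log2 fold change was 0.95. The cell type that carries the Amotl2 difference was not tested.

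The genes whose pattern was most like that of Amotl2 were ranked by Pearson correlation of log2 CPM over the 7 libraries, among 10331 genes with a mean of at least 5 CPM. They were Orc4 (r = 0.98), Ppp1r15b (0.97), Ikzf2 (0.96), Mbtd1 (0.96) and Ttyh3 (0.96). Ppp1r15b had 78.3, 69.6 and 92.4 CPM in Traf6 KO 1 to 3, against 47.7, 39.0 and 41.3 CPM in control 1 to 3 and, for the library labelled control 4, 51.7 CPM. Within genotype, using deviations from each group's mean, the nearest were Map1s (0.98), Fam117a (0.97), Dact2 (0.97), Tubb6 (0.97) and Cfap20 (0.97). Tubb6 had 4.70, 3.07 and 22.3 CPM in Traf6 KO 1 to 3 and 2.87 to 5.18 CPM in control, so this likeness rests on the height of Traf6 KO 3. None of these correlations was tested.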

How the data were processed

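Gene counts for 7 libraries were deposited as whole numbers without normalization, from islet RNA read in paired 151 bp cycles, per the labels' protocols. STAR 2.6.1b, RSEM 1.3.1, FastQC and GRCm38 stand in the submitters' processing notes without roles, so counts may be rounded estimates. The sources used here name neither annotation nor strand setting. Groups came from the library descriptions.

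edgeR 4.0.16 in R 4.3.3 fitted all libraries (quasi-likelihood test, genotype only, TMM, filterByExpr with minimum count 10 and total 15, Benjamini-Hochberg adjustment) and was tested on simulated data. Fold changes are Traf6 KO over control. SE derives from the F statistic. DESeq2 1.42.0 and limma 3.58.1 were alternatives. Coordinates and exon lengths come from GENCODE M21 on GRCm38. Genes named were the 10 of the set, up to 4 per list by smallest p, Traf6 and the genes most like Amotl2. Plk2 and Snx18 were named as next by p after Amotl2, and Rgs5 as the stellate list gene of highest level. Xist and the overlapping or untested genes are named where they bear on a result. Others are said to be chosen after their values were seen. Genes and lists were chosen with earlier results of these data known. No 2 libraries agreed within sampling noise (lowest chi-square per gene 21.8 over 21 pairs).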

Additional observations from a re-analysis of the deposited data

Results flagged for a closer look

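Wwtr1 in the control libraries was flagged because 1 library stood apart from the others. Control 3 had 6.06 CPM of Wwtr1, against 5.603, 5.63 and 5.65 CPM in the other control libraries, and its gap to the nearest was 0.897 of the group's range. The whole control range was narrow, so the gap is small in CPM. Chance flags about 1 in 20 groups, and 9 genes were examined.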

How the results depend on the processing

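The count of genes past the threshold, 0 in the edgeR fit, was 634 with the DESeq2 Wald test, 3 with the acinar covariate, 1 with the ductal covariate and 67 without the 3 acinar-rich libraries. Leaving out each library in turn gave 0 to 701, the 701 without Traf6 KO 3. With the replicate number as a replicate block it was 5. The labels do not say that the numbers pair animals, and they were not taken as pairs. Same-numbered libraries had deviations correlated at 0.47, -0.08 and 0.41. The same-numbered control was the best match for Traf6 KO 1 and 3, while control 1 was the best match for Traf6 KO 2. YAP and TAZ targets above 0 numbered 11 of 26 on plain library totals (42.3%, against 14.5% of all genes), a scaling chosen after the data were seen. On that scale 18 of the 26 were above the median gene.

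Over 22 alternatives Amotl2, Tead1 and Yap1 kept a log2 fold change above 0. It changed sign in 7 for Ajuba, 2 for Lats2 and 1 each, plain totals, for Amotl1, Amot, Lats1 and Wwtr1. Calls of single genes are given only for settings that keep more than 1 Traf6 KO library. Adjusted p was under 0.05 for Amotl2, Yap1 and Tead1 with the DESeq2 Wald test, which called 634 of 28869 genes with a p-value. With edgeR without Traf6 KO 3, which called 701 of 16540 genes, it was under 0.05 for Amotl2 and Yap1. That setting leaves Traf6 KO 1 and 2, the libraries of largest acinar share. Since the contrast chose the set, nothing is read from these calls. With the longest transcript as length, Amotl2 came first in Traf6 KO (6.74 CPM per kilobase) and Amotl1 in control (5.47, ahead of Lats1 at 4.98). Counts of Amot, Ajuba and Ankrd1 limit what can be seen of them.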
